A study of Mus musculus with 5 samples.

Results

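The cells described here are fibroblasts of mouse heart that carried transcripts of Hsd11b1, G0s2 and Gsta3 and few transcripts of Pi16, Dpp4 and Sema3c. They were selected on measured transcript counts (unique molecular identifiers, UMIs) in single cell barcodes. A barcode had at most 10% of its UMIs from mitochondrial genes and at least 5 UMIs of Dcn, Col1a1 and Pdgfra together, with at least 1 of Pdgfra or Col1a1. It also had at least 2 UMIs of Hsd11b1, G0s2 and Gsta3 together (the triad), at most 2 of Postn and at most 1 of Pi16, Dpp4 and Sema3c together. Fewer than 5 UMIs of Cxcl9, Cxcl10 and Gbp4 and at most 1 of Pecam1, Cdh5 and Ptprc completed the rule. In all, 1950 of 47319 barcodes met every limit. Of the 38337 barcodes within the mitochondrial limit, 10339 met the fibroblast limits alone (Dcn, Col1a1, Pdgfra, Pecam1, Cdh5 and Ptprc).

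The mice model myocarditis under loss of immune checkpoints. All of them lacked Pdcd1 (Pdcd1-/-), the gene of the receptor PD-1. Control hearts were Ctla4+/+Pdcd1-/- (4 mice, libraries 1 and 2), and disease hearts were Ctla4+/-Pdcd1-/- (10 mice, libraries 3, 4 and 5), with 1 intact copy of the checkpoint receptor gene Ctla4. Hearts were pooled, digested with enzymes and sorted for living nucleated cells (DRAQ5+DAPI-). Each library therefore mixes animals, and the libraries, not the mice or barcodes, are the replicates. The labels give no age and do not say how many hearts entered each library. The genotype tag counts up from sample to sample and does not match the study's design text, which together with the library titles sets the groups used here. The p-values below measure the spread between these 5 libraries only, which may be technical.

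Cardiac fibroblasts lie between the muscle fibres and around the vessels, where they make and renew the collagen and proteoglycan matrix. Pi16 and Dpp4 mark fibroblasts of the adventitia, the outer sheath of vessels, while Postn marks fibroblasts activated by injury. Hsd11b1 encodes the enzyme that makes active glucocorticoid from its inert form inside the cell. G0s2 encodes an inhibitor of the lipase that opens stored triglyceride, and Gsta3 a glutathione transferase that detoxifies reactive compounds.

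Among fibroblast marker genes outside the rule, Tcf21, a transcription factor of cardiac fibroblasts, was at 552.5 to 771 CPM (counts scaled to the same total in each library) over the 5 libraries, against 5.82 to 9.85 CPM in barcodes gated as endothelial and 1.86 to 6.06 CPM in those gated as leukocytes. Col3a1, a fibrillar collagen chain, was at 1339 to 2309 CPM against 16.3 to 38.7 and 10.7 to 15.4 CPM. The endothelial gate took barcodes with at least 3 UMIs of Pecam1 and Cdh5 together and none of Ptprc. The leukocyte gate took those with at least 2 UMIs of Ptprc and none of Cdh5. Both gates allowed at most 1 UMI of Dcn, Col1a1 and Pdgfra together, so they also limit fibroblast RNA. The low levels there are tied to that limit and are no test of identity. The barcodes that met the rule had been named main interstitial fibroblasts, but they were not the larger part of the fibroblasts. Control libraries 1 and 2 gave 678 and 278 such barcodes, and disease libraries 3, 4 and 5 gave 323, 339 and 332. Together they were 18.9% of the fibroblast-gated barcodes. Fibroblasts that passed the Postn and interferon limits but had 2 or more UMIs of Pi16, Dpp4 and Sema3c, called Pi16-carrying fibroblasts below, numbered 6208, or 60.0%. Of these, 4414 also had at least 2 UMIs of the triad. The limit on Pi16, Dpp4 and Sema3c was missed by 69.5% of fibroblast-gated barcodes, the triad limit by 30.3%, the Postn limit by 6.45% and the interferon limit (Cxcl9, Cxcl10 and Gbp4) by 6.9%. The selected barcodes are therefore called Pi16-low fibroblasts below.

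Dcn, a small proteoglycan of collagen fibres, had a mean of 117, 126, 125, 126 and 127 UMIs per barcode in libraries 1 to 5, and Pdgfra, a growth factor receptor that marks fibroblasts, was detected in 83.5% to 88.8%. Detection of Hsd11b1 ranged over libraries from 50.8% to 68.7%, that of G0s2 from 90.0% to 94.4% and that of Gsta3 from 49.2% to 60.4%. All triad genes together were present in 25.1% to 38.6% of the barcodes of a library, and G0s2 alone carried the triad in 16.8% to 27.5%. These genes chose the barcodes, so the values only describe the selection. Thinned to 2000 UMIs per barcode, Hsd11b1 was detected in 30.5% to 46.9% of Pi16-low fibroblasts and in 0.244% to 0.771% of endothelial and 3.26% to 7.33% of leukocyte barcodes. Other fibroblast genes were detected more often in endothelial barcodes, Dcn in 20.1% to 28.0% and Pi16 in 7.78% to 11.7%. The endothelial gate allows at most 1 UMI of Dcn, Col1a1 and Pdgfra together, so the gate itself caps the Dcn value. Before thinning, median UMIs per barcode were 4535 to 5478 in Pi16-low fibroblasts and 2619 to 3469 in the endothelial gate.

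Pi16, a secreted peptidase inhibitor homologue, is part of the rule, so its values here only describe the selection. Among triad-carrying fibroblasts, with barcodes thinned to 2000 UMIs, 30.2% to 37.6% held no Pi16 UMI, 15.5% to 18.3% held 1 and 11.1% to 12.9% held 2. Just inside the limit lay 731 barcodes with a Pi16, Dpp4 and Sema3c sum of 1, beside 1219 with a sum of 0. Just outside lay 474 with a sum of 2, followed by 1870 with 3 to 9 and 2070 with 10 or more. At the triad limit, 348 Pi16-low fibroblasts had a sum of exactly 2, while 403 barcodes that met all other limits had a sum of 1 and 529 had 0. The Pi16 level of Pi16-low fibroblasts was 62.2, 53.3, 59.7, 66.7 and 70.8 CPM in libraries 1 to 5, a level that the limit of 1 UMI sets. The endothelial gate has no limit on Pi16 but allows at most 1 UMI of Dcn, Col1a1 and Pdgfra together. The Pi16 level there was 66.8, 56.9, 69.9, 60.7 and 77.0 CPM. In Pi16-carrying fibroblasts it was 2359 to 3138 CPM.

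**Figure D1:**
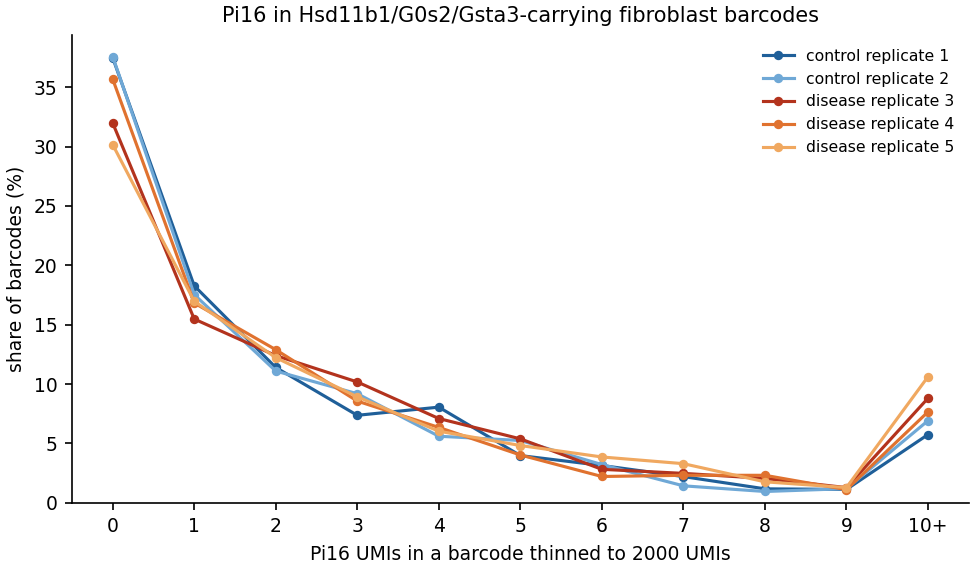
Share of triad-carrying fibroblast barcodes (y axis, %) by their number of Pi16 UMIs after thinning to 2000 UMIs (x axis, the last position pools 10 or more), with 1 line per library. Between 30.2% and 37.6% hold none, and Pi16 is part of the rule, so the plot describes the selection.

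Some libraries stood apart in ways that touch the comparisons. The T and B cell markers in Pi16-low fibroblasts summed to 199 and 19.5 CPM in control and 32.1, 560.3 and 225 CPM in disease libraries. Over all barcodes the same markers summed to 2523, 476, 721.9, 10765 and 3576 CPM in libraries 1 to 5. In library 2, 8 of the 13 lymphoid markers were at 0 in these fibroblasts, Cd3d, Cd3e and Cd3g among them, and in library 4 none was. Myeloid marker sums were 771 and 730 CPM in control and 225, 646 and 413 CPM in disease libraries. Over all barcodes, Ctla4 was at 33.1 and 1.43 CPM in control and 5.79, 162 and 51.8 CPM in disease, and Pdcd1 at 45.9, 3.12, 7.40, 264 and 78.6 CPM in libraries 1 to 5. Pdcd1 transcripts were thus counted in libraries labelled Pdcd1-/-, and counts of a gene whose deleted part is not given do not check the genotype. Any pair of libraries shared 86 to 161 barcode sequences, of which at most 2 were Pi16-low fibroblasts in both. Scrublet marked 22 Pi16-low fibroblasts (1.13%) as doublets, 10 and 6 in control and 0, 4 and 2 in disease libraries. They were kept.

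Pi16-low fibroblasts made up 21.5% and 20.8% of the fibroblast-gated barcodes in control libraries and 17.7%, 17.2% and 16.1% in disease libraries. The groups did not overlap. The difference of -4.18 percentage points had an exact permutation p of 0.1, two-sided, the smallest that 2 against 3 libraries can give. The sign changed at equal depth. Here each barcode of at least 2000 UMIs was thinned to 2000 and the rule was applied again to the thinned counts, which selects another set of barcodes (705, 243, 357, 465 and 432 in libraries 1 to 5). In that set the shares were 23.7% and 19.9% in control and 21.4%, 24.4% and 21.5% in disease libraries, a difference of 0.582 percentage points (exact permutation p = 0.9). On the full counts, Pi16-low fibroblasts were, of all barcodes within the mitochondrial limit, 7.31% and 4.97% in control and 5.55%, 3.40% and 4.32% in disease libraries, and these groups overlapped (difference -1.72, exact permutation p = 0.3).

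Genes outside the rule also differed with the Pi16 count. They are given as levels with no test, because all genes of the same barcodes are tied to the selection. Genes are ranked by the log2 ratio of levels with 1 CPM added, only among those outside the rule and the mitochondrial genome with a mean of at least 50 CPM in either class, so genes at lower levels are not ranked. Igfbp3, a carrier of insulin-like growth factors, was furthest above the Pi16-carrying fibroblasts, at 463.5 and 801 CPM in control and 492, 143 and 328.5 CPM in disease libraries against 33.4 to 92.1 CPM. Its mean log2 ratio was 3.02 over the 5 libraries. Apoe, a lipid carrier, followed at 3663 to 8112 CPM against 1384 to 2195 CPM. Next by mean log2 ratio came Tmem176b (1.77), Gm2564 (1.74), Cxcl5 (1.73), Tmem176a (1.65), Sfrp2 (1.54), Ifitm1 (1.52), Sept4 (1.47), Cyp1b1 (1.40), Mdk (1.40) and Inmt (1.36). Cxcl5 is a neutrophil-attracting chemokine, Sfrp2 a modulator of Wnt signalling, Mdk a growth factor, and Cyp1b1 and Inmt encode enzymes that modify foreign compounds and amines.

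At the other end, Tmem100, a membrane protein of vessels, was lowest against Pi16-carrying fibroblasts, at 3.71 to 8.99 CPM against 99.8 to 115.5 CPM (mean log2 ratio -3.97). Cd248, a marker of perivascular stromal cells, was at 21.2 to 47.5 CPM against 138 to 389 CPM. The mean log2 ratios of Efhd1, Adgrd1, Hspb8, Ly6c1, Nbl1 and Cilp ran from -2.90 to -2.17. Apart from Ifitm1, these genes moved in 1 direction at every step of the Pi16, Dpp4 and Sema3c sum. Igfbp3 averaged 532 CPM at a sum of 0, 305.5 at 1, 131 at 2, 77.1 at 3 to 9 and 18.5 at 10 or more. Over the same steps Cd248 averaged 22.9, 40.4, 55.4, 87.4 and 320.5 CPM. The libraries' median UMIs per barcode were 4386 to 5276 at a sum of 0 and 6918 to 8730 at 10 or more, and the part of depth in these levels was not tested.

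**Figure D2:**
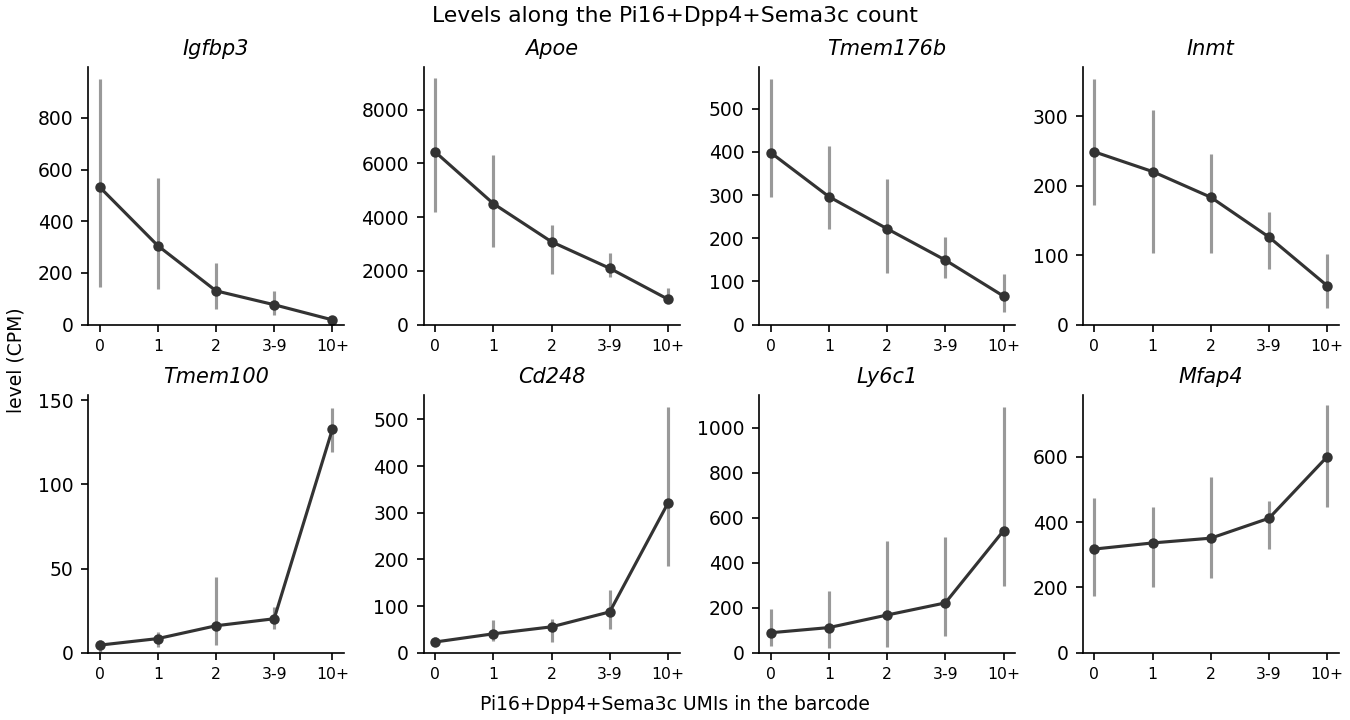
Level (y axis, CPM) of 8 genes in triad-carrying fibroblasts grouped by their Pi16, Dpp4 and Sema3c UMIs (x axis). Points are means over the 5 libraries and bars run from the lowest to the highest library. Igfbp3 falls from 532 to 18.5 CPM and Cd248 rises from 22.9 to 320.5 CPM.

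A second class, the 932 triad-low fibroblasts, met the same limit on Pi16, Dpp4 and Sema3c but had fewer than 2 UMIs of the triad. Its Pi16 level was 75.6, 95.5, 84.9, 102 and 91.1 CPM in libraries 1 to 5. The rule allows at most 1 UMI of Pi16, and 1 UMI is a higher CPM in a shallower barcode. These values therefore only describe the selection of this class. Against it, with the same limit of 50 CPM, the highest mean log2 ratios of levels belonged to Cxcl14 (1.75), a chemokine made by stromal cells, and Ackr4 (1.41), a receptor that removes chemokines. The lowest belonged to Gm26917, Cxcl2, Egr3 and Cytl1, followed by the class II antigen presentation genes H2-Eb1, Cd74, H2-Ab1 and H2-Aa. The mean ratio of Cytl1 was -1.91, and -0.88 without disease library 3, where it was at 486 CPM in triad-low barcodes. In disease libraries 4 and 5 Cytl1 was higher in Pi16-low fibroblasts (90.8 against 25.6 and 2.55 against 2.03 CPM). The mean ratio of Cxcl2 was -2.20, and -1.53 without disease library 3. The summed level of 14 myeloid markers was also higher in triad-low barcodes in all 5 libraries. It was 2326, 787, 2611, 2140 and 867 CPM there, against 771, 730, 225, 646 and 413 CPM in Pi16-low fibroblasts of libraries 1 to 5, with 9 to 14 of the 14 below the triad-low level in a library. Tyrobp, a signalling adaptor of myeloid cells, was at 52.7 to 142 against 15.4 to 44.5 CPM, and the part of leukocyte RNA in the class II values was not tested. Triad-low barcodes were shallower, with library medians of 2159 to 2995 UMIs.

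Among the Pi16-low fibroblasts themselves, few genes varied strongly from barcode to barcode at equal depth. Of 1380 genes with a mean of at least 0.2 UMIs after thinning, 135 had a variance-to-mean ratio over 2, and the median ratio was 1.15. The top 12 held Gm42418, AY036118 and Lars2, whose counts are known to follow ribosomal RNA, and Malat1, a nuclear RNA. They also held Gsn (21.97), an actin-severing protein, Mt1 (17.5), a metal-binding stress protein, and Mgp (12.8), an inhibitor of calcification. The ratio was not corrected for a gene's mean, which was 66.9 UMIs per thinned barcode for Gsn, 3.40 for Mt1 and 22.4 for Mgp. Gsn differed between libraries as well, with means of 85.6, 86.6, 94.9, 21.4 and 45.9 UMIs per thinned barcode in libraries 1 to 5. Ccl2 and Cxcl1, chemokines for monocytes and neutrophils, were detected in 13.5% to 26.7% and 65.1% to 76.0% of barcodes. Cd74 was detected in 40.9, 12.6, 19.2, 59.0 and 24.1% and Ccl5 in 14.2, 0, 0.962, 40.1 and 6.03% of barcodes in libraries 1 to 5. Both are genes of immune cells and were highest in library 4. Ccl5 is itself 1 of the lymphoid markers and made up 335 of their 560.3 CPM there. The part of leukocyte RNA was not tested.

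Disease and control were compared on the summed counts of the Pi16-low fibroblasts in each library, and p-values came from the quasi-likelihood test of edgeR, adjusted by the Benjamini-Hochberg method over all 9882 genes tested. At an edgeR adjusted p under 0.05, 36 genes were higher in disease (0.364% of those tested) and 1077 were lower (10.9%), so 11.3% were called in all. Levels did not overlap between the groups for 45.9% of the genes tested, a share to hold beside every statement below that groups do not overlap. The median log2 fold change of all genes was -0.0020. Fold changes are disease over control and levels are CPM after TMM scaling, unless said otherwise. Without control library 1, control library 2 or disease library 5, 4, 2 and 4 genes were higher and 556, 471 and 597 were lower, and without disease library 4, 60 were higher.

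The lower calls were more frequent among genes whose transcripts start with GC-rich sequence. Over 6866 genes with a mean log2 CPM above 4, the GC content of the first 300 transcript bases and the log2 fold change had a Spearman rho of -0.32 across genes, which are not independent and share the same 5 libraries. Split by GC into 10 parts, the part with the highest GC had a median GC of 70%, with 30.4% called lower, 0% called higher and a median log2 fold change of -0.56. The part with the lowest GC had a median GC of 44.8%, with 6.11% called lower and a median log2 fold change of 0.15. After a GC trend was removed from each library, 63 genes were higher and 929 lower. Each call below that ended in that fit is named.

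**Figure D3:**
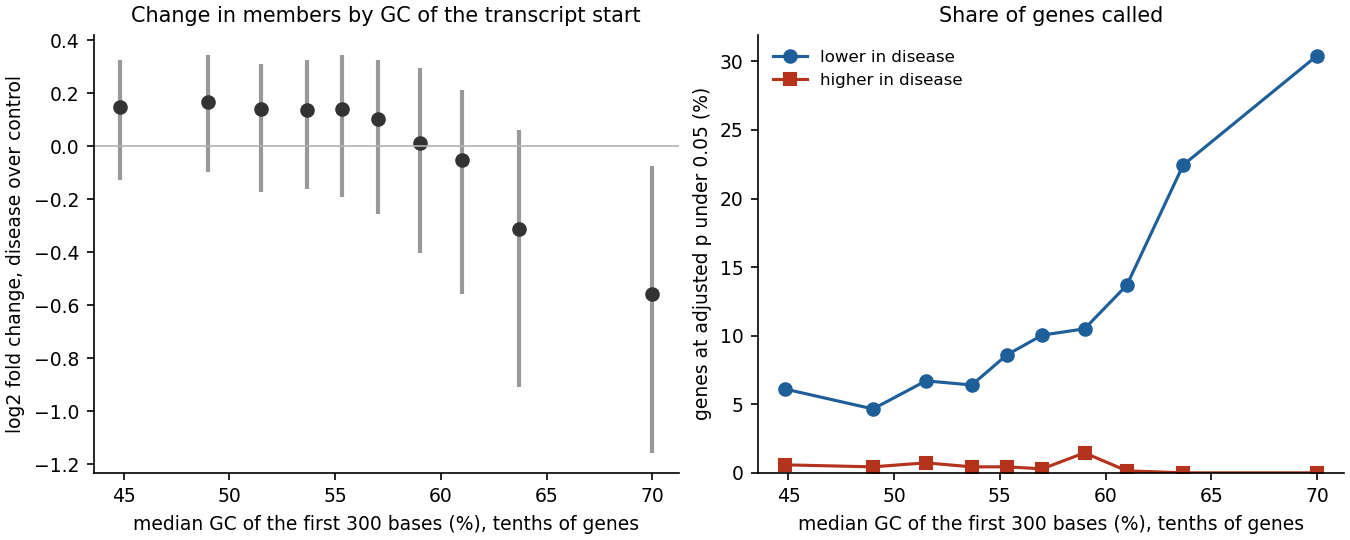
Left, log2 fold change in Pi16-low fibroblasts (y axis, median and quartiles) for 10 parts of the genes by median GC of the first 300 transcript bases (x axis, %). Right, percent of each part called higher or lower at an adjusted p under 0.05 (y axis). The lower share reaches 30.4% in the part with the highest GC.

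The circadian clock genes held the largest of the 12 rises chosen by the naming rule. The clock turns on a loop in which Arntl, with Clock or Npas2, drives the genes of its own repressors. Per1, Per2 and Nr1d1 are among those repressors, and Dbp, Tef and Hlf are output factors of the clock. Of 16 clock genes tested, 4 rose and 1 fell at an edgeR adjusted p under 0.05, against 11.3% of all genes called in either direction, and the median log2 fold change of the 16 was 0.44.

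Dbp (chr7:45705088-45710203 in GRCm38, plus strand) was at 54.0 and 29.9 CPM in control and 140.3, 164 and 162.5 CPM in disease libraries. Every disease library was above both controls (log2 1.86, SE 0.26, edgeR adjusted p = 0.00412). Hlf was at 50.1 and 37.7 against 75.4, 78.8 and 88.7 CPM (log2 0.86, edgeR adjusted p = 0.0253), and Nr1d1 at 73.4 and 85.8 against 119.8, 134 and 134 CPM (log2 0.70, edgeR adjusted p = 0.0311). Neither gene overlapped between groups. Per2 was low throughout, at 4.76 and 4.55 against 13.2, 10.99 and 12.2 CPM (log2 1.36, edgeR adjusted p = 0.0301), was called in 8 of 17 alternatives and was not called by DESeq2 (adjusted p = 0.0871). Arntl, the driver of the loop, fell from 31.4 and 44.2 to 13.9, 15.3 and 10.3 CPM (log2 -1.49, edgeR adjusted p = 0.0111). Its partners Clock (log2 -0.43, edgeR adjusted p = 0.176) and Npas2 (log2 -1.02, edgeR adjusted p = 0.115) had values below control that did not pass the test, and Tef (0.76, edgeR adjusted p = 0.108) and Per1 (0.51, edgeR adjusted p = 0.139) had values above control that did not. Dbp kept its call without any 1 library, with an edgeR adjusted p of 0.00273 to 0.0281. With edgeR adjusted p in parentheses, Arntl lost its call without control library 2 (0.0865) and disease library 5 (0.0605), Hlf without control library 1 (0.0602), control library 2 (0.193) and disease library 5 (0.105), Nr1d1 without control library 1 (0.214), control library 2 (0.124) and disease library 5 (0.136) and Per2 without control library 1 (0.179), control library 2 (0.158), disease library 3 (0.0631) and disease library 5 (0.0989).

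In the same libraries, Dbp had a log2 ratio of mean levels (disease over control, 1 CPM added) of 1.74 in the endothelial gate and 0.69 in the leukocyte gate, and Arntl of -2.24 and -1.12. In Pi16-carrying fibroblasts the fitted log2 fold changes were 1.65 for Dbp and -1.72 for Arntl. These comparisons share their control libraries. The labels give no hour of collection for any library.

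Sequence upstream of these genes is shown because they belong to 1 regulatory loop. Of the 5 called clock genes, Hlf, Nr1d1 and Arntl had RefSeq promoter entries (GRCm38.p6) whose 250 bases before the start lie outside the annotated gene. Each is written 5′ to 3′ on the gene's own strand. Capitals mark matches, on either strand, to the E-box CACGTG bound by Arntl and Clock, its variant CACGTT, the D-box TTANGTAA bound by Dbp and Hlf, the receptor site AGGTCA bound by Nr1d1, or the cyclic AMP element TGACGTCA. The motifs were chosen after the sequences had been seen.
Hlf, chr11:90390918-90391167, minus strand: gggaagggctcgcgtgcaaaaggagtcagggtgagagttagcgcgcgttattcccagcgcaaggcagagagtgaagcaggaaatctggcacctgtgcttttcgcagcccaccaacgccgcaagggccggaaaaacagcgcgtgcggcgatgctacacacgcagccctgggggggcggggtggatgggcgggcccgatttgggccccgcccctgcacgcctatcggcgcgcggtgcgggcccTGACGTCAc
Nr1d1, chr11:98775378-98775627, minus strand: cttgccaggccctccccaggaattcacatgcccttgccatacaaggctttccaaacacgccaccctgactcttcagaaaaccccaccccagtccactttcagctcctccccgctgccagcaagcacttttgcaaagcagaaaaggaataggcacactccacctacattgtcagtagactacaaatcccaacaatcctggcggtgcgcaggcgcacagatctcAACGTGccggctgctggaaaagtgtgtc
Arntl, chr7:113207215-113207464, plus strand: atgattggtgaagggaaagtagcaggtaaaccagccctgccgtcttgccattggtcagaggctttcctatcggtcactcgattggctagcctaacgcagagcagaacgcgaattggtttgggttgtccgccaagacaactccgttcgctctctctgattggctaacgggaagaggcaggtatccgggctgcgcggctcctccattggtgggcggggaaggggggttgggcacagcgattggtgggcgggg

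Hlf had 1 cyclic AMP element beginning 9 bases before its start. Nr1d1 had 1 E-box variant beginning 28 bases before its start, and Arntl had no match. These starts are those of RefSeq. The run of bases just after the start was not found whole in the annotated transcripts of Hlf and Nr1d1, while that of Arntl was. Of 32851 promoter windows of 250 bases, 1.55% held the cyclic AMP element, 3.85% the E-box variant, 6.02% the E-box, 2.06% the D-box and 14.0% the receptor site. A match describes the letters of this window and no site of binding.

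**Figure D4:**
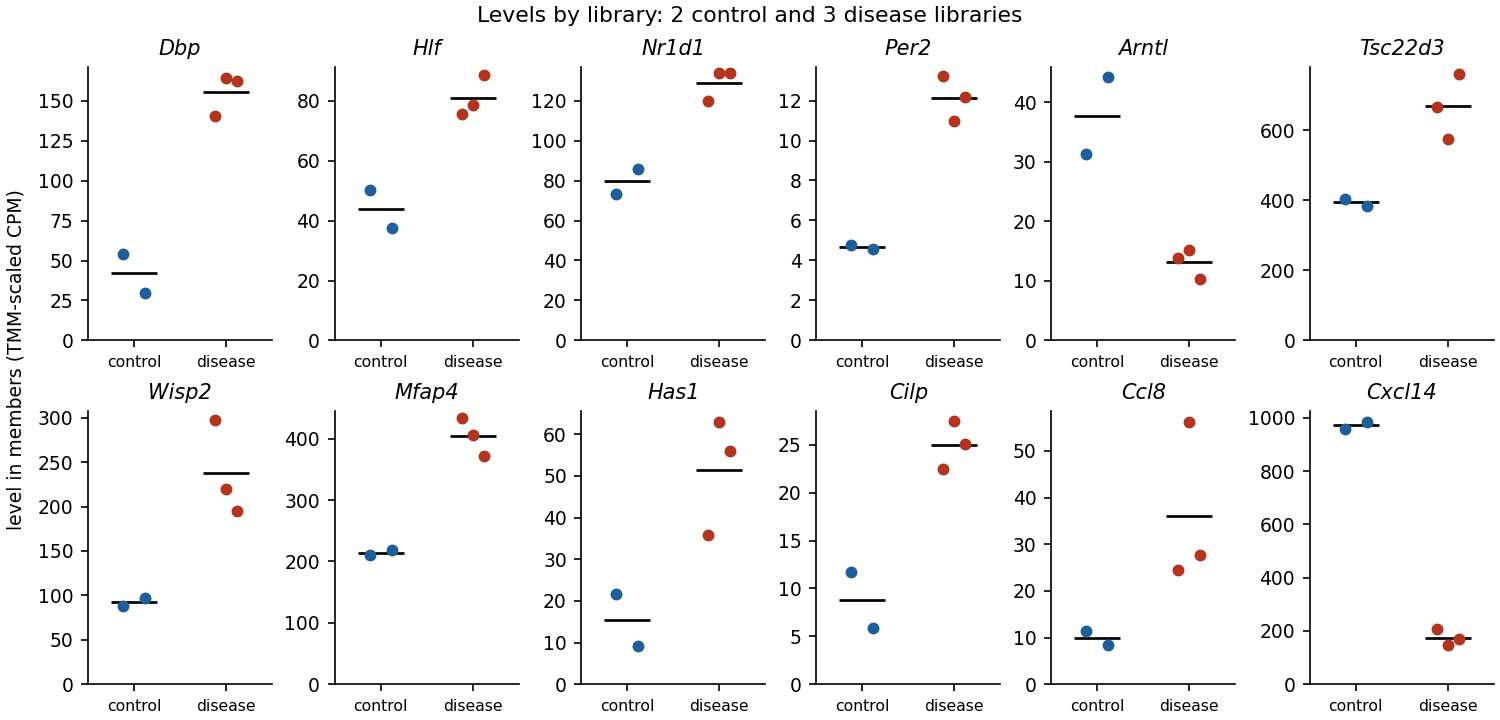
Level (y axis, TMM-scaled CPM) of 12 genes in Pi16-low fibroblasts of the 2 control and 3 disease libraries (x axis). Each point is a library and bars are group means. Dbp sits at 29.9 and 54.0 CPM in control and between 140.3 and 164 CPM in disease, while Arntl and Cxcl14 are lower in every disease library.

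Genes that respond to glucocorticoid split in direction. Tsc22d3, a glucocorticoid-induced leucine zipper protein, was at 405.5 and 385 CPM in control and 667, 577 and 762 CPM in disease libraries, with no overlap (log2 0.76, SE 0.16, edgeR adjusted p = 0.0253). The secreted inhibitor Serpina3n also rose (log2 0.68, edgeR adjusted p = 0.0343). Fkbp5, a chaperone that restrains the receptor, had a log2 fold change of 0.82 that did not pass (edgeR adjusted p = 0.0840). Against these, Cebpd, a transcription factor of the acute phase response, fell from 958 and 661 to 86.0, 44.0 and 81.6 CPM (log2 -3.52, SE 0.31, edgeR adjusted p = 0.000669). Nfkbia, the inhibitor of NF-kappaB, fell from 857 and 647 to 324, 150.2 and 161 CPM (log2 -1.83, edgeR adjusted p = 0.0133), and the phosphatase Dusp1 and the feedback inhibitor Errfi1 fell by 1.08 and 0.90 on the log2 scale. Of 21 tested genes of this list, 2 rose, 4 fell, beside 0.364% and 10.9% of all genes, and the median was 0.08. The receptor Nr3c1 had a log2 fold change of -0.46 that did not pass (edgeR adjusted p = 0.173).

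Cebpd held its call without any 1 library. With edgeR adjusted p in parentheses, Tsc22d3 lost it without control library 1 (0.144), control library 2 (0.205) and disease library 5 (0.110), Serpina3n without control library 1 (0.159), control library 2 (0.246), disease library 3 (0.0649) and disease library 5 (0.135), Nfkbia without control library 1 (0.113), control library 2 (0.0637) and disease library 5 (0.0700), Dusp1 without control library 1 (0.0662) and control library 2 (0.0608) and Errfi1 without control library 1 (0.219), control library 2 (0.146) and disease library 5 (0.0989). After the GC trend was removed, Serpina3n (0.0663) and Errfi1 (0.118) were no longer called.

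Stress and immediate early genes, which cell digestion is known to induce, gave 3 falls and no rise among 30 tested genes, a share of falls near the 10.9% of all genes, with a median of -0.05. Atf3, a stress transcription factor, fell from 818 and 665 to 129.7, 146 and 162 CPM (log2 -2.35, edgeR adjusted p = 0.000369). The chaperone gene Dnajb1 fell by 1.85 and Jund, a subunit of AP-1, by 1.87 on the log2 scale. Atf3 had log2 ratios of -2.05 in the endothelial and -2.45 in the leukocyte gate of the same libraries, and Cebpd of -3.43 and -3.37. Atf3 and Dnajb1 were called in every fit without 1 library, while Jund was not called without control library 2 (0.155), the edgeR adjusted p in parentheses.

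Of 34 matrix genes tested, 1 rose and 2 fell, no larger a share than the 11.3% of all genes called in either direction, and the median was 0.15. Mfap4, a microfibril protein bound to elastic fibres, was at 210.3 and 218 CPM in control and 434, 405 and 373 CPM in disease libraries. All disease libraries lay above both controls (log2 0.92, SE 0.15, edgeR adjusted p = 0.00687). Fbln1, a fibulin of elastic and basement membrane matrix, fell from 1830 and 2177 to 780.2, 562 and 642 CPM (log2 -1.60, edgeR adjusted p = 0.00150). Pcolce2, an enhancer of procollagen processing, fell from 389 and 350.2 to 136, 132 and 120.1 CPM (log2 -1.52, edgeR adjusted p = 0.000911). Bgn, a small proteoglycan (log2 0.50, edgeR adjusted p = 0.0701), and Mgp (0.41, edgeR adjusted p = 0.134) had values above control that did not pass. Fbln1 and Pcolce2 held in every fit without 1 library. Mfap4 was not called without control library 1 (0.0775) and control library 2 (0.0786), the edgeR adjusted p in parentheses.

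Of 23 activation genes tested, 2 rose and 2 fell, beside 0.364% and 10.9% of all genes. Wisp2, a secreted matricellular protein of the CCN family, was at 88.2 and 96.8 CPM in control and 297, 219 and 195 CPM in disease libraries (log2 1.36, SE 0.22, edgeR adjusted p = 0.00692). Cilp, a matrix protein that binds growth factors, rose from 11.8 and 5.85 to 22.5, 27.5 and 25.1 CPM (log2 1.40, edgeR adjusted p = 0.0286). Cyr61, another CCN family member, fell from 1124 and 955 to 454, 257 and 331 CPM (log2 -1.58, edgeR adjusted p = 0.00534), and Aebp1, a collagen-binding protein, fell by 1.06 on the log2 scale. Wisp2 and Cyr61, of 1 family, thus went in opposite directions. Comp was at 159 CPM in disease library 3 and at 1.68 to 8.35 CPM in the other 4, and was not called (edgeR adjusted p = 0.160). Acta2 and Tagln, contractile genes of myofibroblasts and of mural cells, overlapped between groups. With edgeR adjusted p in parentheses, Wisp2 lost its call without control library 1 (0.0841) and control library 2 (0.0749), Cilp without control library 2 (0.115) and disease library 5 (0.105), Cyr61 without control library 1 (0.0591) and Aebp1 without control library 1 (0.146), control library 2 (0.155) and disease library 5 (0.116). Without disease library 3 the median of the 23 genes was -0.03 against 0.32 with all libraries.

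The remaining genes among the 12 largest rises were Has1, Cd9, Csrp1, Aspn, Pfdn1, Vegfd and Fmo1. Has1, which synthesises hyaluronan, was at 21.6 and 9.10 CPM in control and 35.7, 62.9 and 55.9 CPM in disease libraries (log2 1.65, SE 0.38, edgeR adjusted p = 0.0327). The tetraspanin Cd9 was at 316 and 253 against 474.5, 562 and 504 CPM (log2 0.85, edgeR adjusted p = 0.0168). Aspn, a small leucine-rich proteoglycan, rose by 0.79 on the log2 scale, the LIM protein gene Csrp1 by 0.81 and Pfdn1, a subunit of the prefoldin chaperone, by 0.78. All 12 kept their direction in each fit without 1 library. The number called was 2 without control library 1 (Dbp and Has1), 1 without control library 2 (Dbp), 10 without disease library 3, 11 without disease library 4 and 3 without disease library 5 (Dbp, Wisp2 and Mfap4). Csrp1 (0.0520) and Fmo1 (0.0522) were not called after removal of the GC trend, by edgeR adjusted p.

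Mfap4 and Cd9 were also higher at each step of the Pi16, Dpp4 and Sema3c sum. At 0, 1, 2, 3 to 9 and 10 or more, Mfap4 averaged 317, 336, 351, 412 and 600.1 CPM and Cd9 355, 519, 602, 731 and 982 CPM. Has1 averaged 34.7, 41.0, 81.4, 51.5 and 95.5 CPM over the same steps and was lower at 3 to 9 than at 2. The share of Pi16-low fibroblasts with a sum of 1 was 38.4% and 36.0% in control and 36.2%, 38.9% and 36.8% in disease libraries. Restricted to barcodes with a sum of 0, an alternative chosen after the data were seen, 6 of the 12 rises were still called (Dbp, Wisp2, Mfap4, Cd9, Csrp1 and Pfdn1). Has1, Hlf, Aspn, Vegfd, Fmo1 and Tsc22d3 were not. All 12 falls were called there.

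Detoxification and redox enzymes gave 1 rise and 2 falls among 29 tested, near the 11.3% of all genes called in either direction, with a median of 0.34 and 23 values above control. Fmo1, a flavin monooxygenase, rose from 44.0 and 37.7 to 62.2, 70.2 and 77.1 CPM (log2 0.76, edgeR adjusted p = 0.0313). In the endothelial gate Fmo1 was at a mean of 258.4 CPM, with a log2 ratio of 0.44. The part of endothelial RNA in the fibroblast value was not tested. Aldh2, the mitochondrial aldehyde dehydrogenase, fell from 625 and 638 to 200.5, 155 and 209 CPM (log2 -1.75, edgeR adjusted p = 0.000929), also in each fit without 1 library. Aldh1a2, which makes retinoic acid, fell by 1.44 on the log2 scale, and lost its call without control library 1 (0.196) and disease library 5 (0.0649), the edgeR adjusted p in parentheses. Of 21 lipid genes, 1 was called, beside 11.3% of all genes in either direction. Rbp4, a carrier of retinol, fell from 10.4 and 26.6 to 0.662, 0.611 and 1.29 CPM (edgeR adjusted p = 0.00694), and lost its call without control library 2 (0.0508).

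Chemokine and cytokine genes gave 1 rise and 2 falls among 21 tested, beside 0.364% and 10.9% of all genes, with a median of 0.30. Ccl8, a monocyte attractant, was at 11.5 and 8.45 CPM in control and 24.5, 56.2 and 27.6 CPM in disease libraries (log2 1.81, SE 0.42, edgeR adjusted p = 0.0342). It is also a macrophage gene, at a mean of 585.8 CPM in the leukocyte gate, where its log2 ratio was 1.67, and the part of leukocyte RNA in the fibroblast value was not tested. Ccl8 lost its call without control library 1 (0.161), control library 2 (0.221) and disease library 5 (0.0760), the edgeR adjusted p in parentheses. Cxcl14 fell from 959 and 984 to 207, 148 and 168 CPM, with both controls above every disease library (log2 -2.48, SE 0.17, edgeR adjusted p = 0.000369), and did so in every fit without 1 library. In the leukocyte gate Cxcl14 was at 0.908 to 10.1 CPM. The interleukin receptor gene Il1r1 fell by 0.65 on the log2 scale, was called in 1 of the 5 fits without a library and was not called after removal of the GC trend (edgeR adjusted p = 0.261). Cxcl12, which retains leukocytes and progenitors, was at 345.5 and 376 against 221, 86.7 and 109.8 CPM (log2 -1.37) and did not pass (edgeR adjusted p = 0.0521).

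No interferon-gamma response gene rose past the threshold, although 24 of 38 values were above control and the median was 0.46. The values followed 1 library. Gbp2, an interferon-induced GTPase, was at 104 and 71.5 CPM in control and 83.4, 475 and 109.8 CPM in disease libraries (edgeR adjusted p = 0.290), and B2m, the light chain of class I, at 1769 and 971 against 1239, 4213 and 1475 CPM. Disease library 4 was the highest for both genes, while library 3 lay between the controls for each. Without library 4 the list's median was -0.14, and that of type I interferon genes went from 0.53 to -0.0097. The rule itself removed barcodes with 5 or more UMIs of Cxcl9, Cxcl10 and Gbp4, which were 21.04% of the fibroblast-gated barcodes in library 4 and 0.876% to 7.09% in the other libraries.

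Of the 38 interferon-gamma genes, 3 fell, and of 25 type I interferon genes 1 fell, neither a larger share than the 10.9% of all genes called lower. Ifngr2, a chain of the interferon-gamma receptor, fell from 34.2 and 42.2 to 8.60, 5.50 and 8.99 CPM (log2 -2.29, edgeR adjusted p = 0.00188), in each fit without 1 library as well. Socs1 and Socs3, feedback inhibitors of cytokine receptors, fell by 1.46 and 1.26 on the log2 scale (edgeR adjusted p = 0.0168 and 0.0106). Socs1 lost its call without control library 1 (0.119), control library 2 (0.101) and disease library 5 (0.0688) and Socs3 without control library 1 (0.104) and control library 2 (0.0616), and Socs1 also after removal of the GC trend (0.0918), each value an edgeR adjusted p. Ifih1, a sensor of viral RNA, fell by 0.61 (edgeR adjusted p = 0.0462) and was called in no fit without 1 library, nor after removal of the GC trend (edgeR adjusted p = 0.226). H2-D1 and H2-K1, heavy chains of class I, had log2 fold changes of -1.86 and -1.10 that did not pass (edgeR adjusted p = 0.0680 and 0.0912). Of 14 complement genes, 13 had values above control, with a median of 0.63, and none was called. C3, the central complement protein, was at 785 and 887 against 929.7, 1880 and 1070 CPM (log2 0.63, edgeR adjusted p = 0.233). Without disease library 4 the complement median was 0.22.

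Growth factors and their receptors gave 1 rise and 3 falls among 24 tested, beside 0.364% and 10.9% of all genes, with a median of -0.21. Gas6, a ligand of the TAM receptors that promotes the clearing of dead cells, fell from 377 and 489.9 to 184, 151 and 146 CPM (log2 -1.43, SE 0.18, edgeR adjusted p = 0.00247), and was called without any 1 library. Csf1, the growth factor of macrophages, fell from 116.5 and 111 to 74.1, 75.1 and 73.2 CPM (log2 -0.62, edgeR adjusted p = 0.0315). Csf1 and Tgfbr2, a receptor of TGF-beta that fell by 0.67, were not called after removal of the GC trend (edgeR adjusted p = 0.196 and 0.558). Each of them was also called in only 1 of the 5 fits without a library, the one without disease library 4. The lymphatic growth factor Vegfd rose by 0.78 and was called in none of those fits (edgeR adjusted p from 0.0540 to 0.219).

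Proteases and their inhibitors gave 1 rise and 5 falls among 24 tested, beside 0.364% and 10.9% of all genes, with a median of 0.03. Ctsk, a collagen-degrading cathepsin, rose by 0.68 on the log2 scale (edgeR adjusted p = 0.0285), with an edgeR adjusted p of 0.0560 after removal of the GC trend, and was called in 1 of the 5 fits without a library. Serpine2, an inhibitor of thrombin and plasminogen activators, fell from 443 and 422 to 142, 107.5 and 114 CPM (log2 -1.83, edgeR adjusted p = 0.000797). The serine protease Htra3 fell from 1897 and 2429 to 711, 629 and 728 CPM (log2 -1.65, edgeR adjusted p = 0.000917). The others were the proteases Mmp23 (log2 -2.20), Mmp11 (-1.91) and Htra1 (-1.20). Serpine2 and Htra3 were called in each fit without 1 library. With edgeR adjusted p in parentheses, Mmp23 lost its call without control library 1 (0.0767), control library 2 (0.0862) and disease library 5 (0.0720), Mmp11 without control library 1 (0.0588) and Htra1 without control library 1 (0.133), control library 2 (0.166) and disease library 5 (0.0690).

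The 20 fibroblast identity genes gave no call, beside 11.3% of all genes called in either direction, with 17 values above control and a median of 0.27. Their summed level was nonetheless 56263 and 56825 CPM in control and 63120.3, 28637 and 37527 CPM in disease libraries, lowest in libraries 4 and 5. Most of the sum was Gsn in libraries 1, 2, 3 and 5, at 43616 and 44571 CPM in control and 48577, 10429 and 22538 CPM in disease libraries. Tcf21 was at 574 and 552 against 721, 722.3 and 777 CPM (log2 0.39, edgeR adjusted p = 0.112). Ly6a, a surface protein of stromal and immune cells, was at 599.8 and 240.4 CPM in control and 504, 2399 and 651 CPM in disease libraries, highest in library 4. Of the marker lists of other cells, Lyz2 of myeloid cells, Des of mural cells and Gpm6b of Schwann cells fell. Lyz2 was at 297 and 308 CPM in control and 79.4, 165.5 and 131 CPM in disease libraries (log2 -1.27, edgeR adjusted p = 0.0266) and stood at 6953 to 11562 CPM in the leukocyte gate. With edgeR adjusted p in parentheses, Lyz2 lost its call without control library 1 (0.142), control library 2 (0.171) and disease library 5 (0.115), Des without control library 1 (0.0956) and control library 2 (0.0841) and Gpm6b without control library 1 (0.200), control library 2 (0.136) and disease library 5 (0.132). Of the 11 myeloid markers tested, 9 had values below control, with a median log2 fold change of -0.74. Without the doublets marked by Scrublet that median was 0.25, and Lyz2 had a log2 fold change of -0.09 and was not called. The Schwann cell marker Sox10 was at 0 in every library.

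The 12 largest falls were at very low levels in each disease library. H2afj, a histone variant, was at 109.8 and 98.8 CPM in control and 3.97, 0.611 and 3.21 CPM in disease libraries (log2 -5.32, SE 0.36, edgeR adjusted p = 0.000362). Cox5a, a subunit of cytochrome c oxidase, was at 127 and 106 against 7.28, 7.94 and 7.07 CPM, and Ndufab1, an acyl carrier protein of complex I, at 143 and 128 against 8.60, 8.55 and 10.9 CPM. The others were Scand1, Rnaset2a and Rnaset2b, whose near-identical sequences may share reads, the splicing protein Snrpf, the iron-sulphur protein Bola3, Nenf, the mitochondrial ribosomal protein Mrps24, the phosphatase inhibitor Ppp1r14a and the pentose phosphate enzyme Pgls. All 12 were called in each of the 5 fits without 1 library and after removal of the GC trend.

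Other settings of the selection and the test ended further calls among the genes named above, without turning a direction. With the same number of Pi16-low fibroblasts per library, Csf1, Has1, Ifih1, Nr1d1, Per2, Serpina3n, Tgfbr2, Vegfd and Wisp2 were not called. With no limit on Cxcl9, Cxcl10 and Gbp4 the genes not called were Aldh1a2, Csf1, Gpm6b, Has1, Ifih1, Il1r1 and Tsc22d3, and at a mitochondrial limit of 5% they were Aldh1a2, Csf1, Ctsk, Errfi1, Gpm6b, Ifih1, Il1r1, Nr1d1, Per2, Serpina3n, Tgfbr2 and Tsc22d3. A triad sum of at least 3 left Cilp, Csrp1, Ifih1, Serpina3n, Tgfbr2 and Vegfd without a call, and no UMI of Pecam1, Cdh5 and Ptprc left Csf1, Errfi1, Ifih1, Il1r1, Per2 and Tgfbr2. DESeq2 did not call Csf1, Ifih1, Il1r1, Per2, Tgfbr2 and Vegfd, and RLE scaling did not call Ifih1 and Tgfbr2. Ifih1 was also not called with no filter on low counts. Without doublets Ccl8, Csf1, Ifih1 and Lyz2 were not called. Under the settings chosen after the data were seen, Aebp1, Ccl8, Csrp1, Ctsk, Has1, Ifih1, Lyz2, Per2, Pfdn1 and Vegfd were not called with no limit on Pi16, Dpp4 and Sema3c. With that sum at 0, Ccl8, Cilp, Csf1, Des, Il1r1, Lyz2, Nr1d1, Serpina3n, Socs1 and Tgfbr2 were not called besides the rises given above.

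The same genes were low in disease in other cells of these libraries. H2afj had a fitted log2 fold change of -5.44 in Pi16-carrying fibroblasts and log2 ratios of -4.29 in the endothelial and -5.41 in the leukocyte gate. Across the 12 genes, which include Ppp1r14a, Rnaset2a and H2afj, the endothelial ratios ran from -2.84 (Ppp1r14a) to -4.63 (Rnaset2a) and the leukocyte ratios from -2.03 (Ppp1r14a) to -5.41 (H2afj). These comparisons share their control libraries. Genotype and library preparation cannot be told apart, since every library holds 1 group only.

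**Figure D5:**
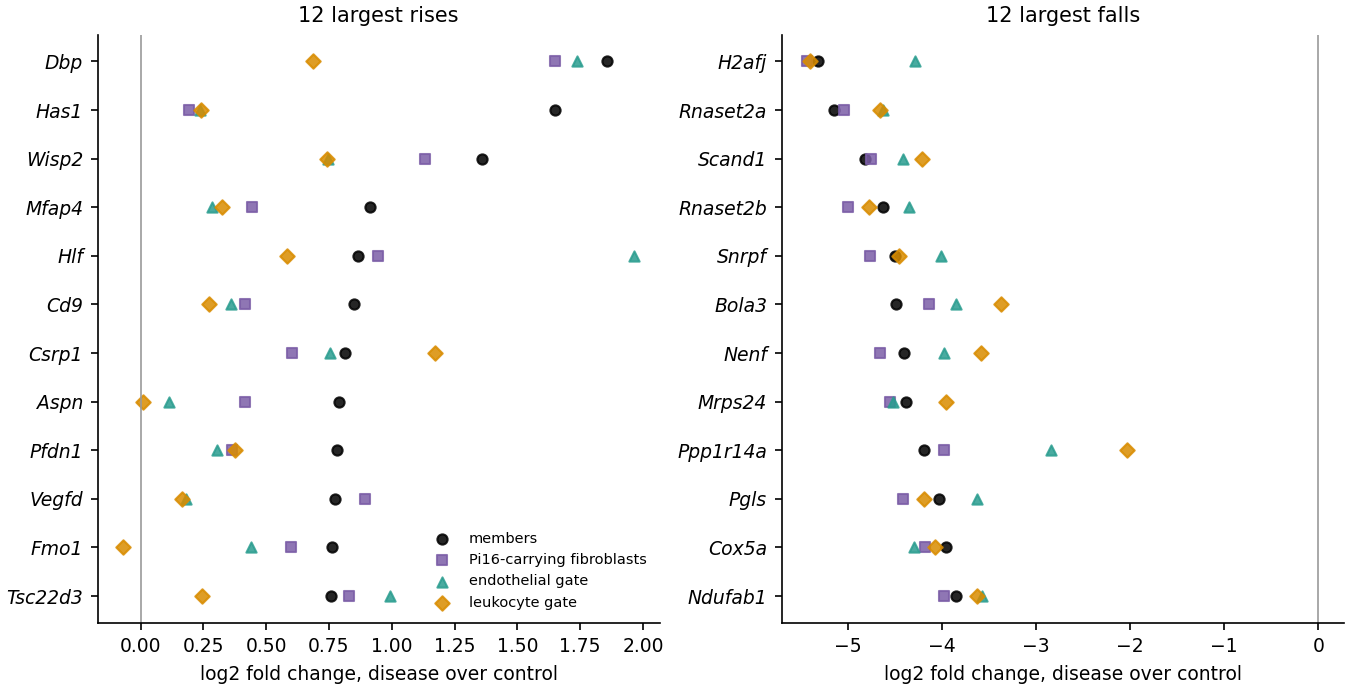
Log2 fold change, disease over control (x axis), of the 12 largest rises and 12 largest falls (y axis) in Pi16-low fibroblasts (members, fitted), Pi16-carrying fibroblasts (fitted) and the endothelial and leukocyte gates (log2 ratio of mean CPM with 1 CPM added). The falls lie between -2.03 (Ppp1r14a) and -5.44 (H2afj) in all 4 populations, while Has1 is at 1.65 in members and 0.19 in Pi16-carrying fibroblasts.

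Whether the change itself differed between Pi16-low and Pi16-carrying fibroblasts was tested with the library as a block on the sums of both classes, and the levels that follow are plain CPM. Of 12331 genes, 13 passed an edgeR adjusted p of 0.05 (0.105%), and 837 had an unadjusted p under 0.05. DESeq2 called 1 gene, Has1, so the other calls of this comparison rest on edgeR. In 5 of the 13 the change was more positive in Pi16-low fibroblasts. Has1 was at 21.02 and 9.10 CPM in control and 34.7, 63.6 and 55.5 CPM in disease libraries in Pi16-low fibroblasts. In Pi16-carrying fibroblasts it was at 102 and 82.6 against 65.8, 168.5 and 98.6 CPM, with overlap between groups. The difference was 1.48 (SE 0.21, edgeR adjusted p = 0.000132) and was called in all 10 alternatives, with an adjusted p of up to 0.0186.

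Mfap4 (difference 0.52, edgeR adjusted p = 0.00410), Cd9 (0.47, edgeR adjusted p = 0.00764) and Col14a1 (0.52, edgeR adjusted p = 0.00847), a collagen that links fibrils, also changed more positively in Pi16-low fibroblasts. Each was lower there than in Pi16-carrying fibroblasts in all 5 libraries, with Mfap4 at 205 to 421 CPM against 442 to 684 CPM and Cd9 at 253 to 568 CPM against 694 to 1092 CPM. Each of these 3 lost its call in 4 of the 5 fits without 1 library, Mfap4 without control library 1, control library 2, disease library 3 and disease library 4, Cd9 without control library 2, disease library 3, disease library 4 and disease library 5 and Col14a1 without control library 1, disease library 3, disease library 4 and disease library 5. In those fits the difference ran from 0.35 to 0.54 for Mfap4, 0.34 to 0.61 for Cd9 and 0.36 to 0.62 for Col14a1. The fifth gene was Comp (3.49, edgeR adjusted p = 0.0467), at 154 CPM in Pi16-low and 31.0 CPM in Pi16-carrying fibroblasts of disease library 3. It lost its call without control library 1, control library 2, disease library 3 and disease library 4. Dlk1, Hba-a1 and Hba-a2 fall outside the naming rule and were chosen after their values were seen.

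Of the 8 genes with a more negative change, 6 are known chiefly from other cells. Hbb-bt, Hbb-bs, Hba-a1 and Hba-a2 encode globins, with Hbb-bs at 72.9 CPM in Pi16-low fibroblasts of control library 1 and at 268 CPM in Pi16-carrying fibroblasts of disease library 3. All 4 lost their calls without control library 1, and Hbb-bt, Hba-a1 and Hba-a2 also without disease library 3. Myh11, of smooth muscle, was at 31.9 CPM in Pi16-low fibroblasts of control library 1 and at most 3.85 CPM in the other libraries, and was not called without control library 1 and disease library 5. Lyz2 had a difference of -1.16 (edgeR adjusted p = 0.00113) that held in each fit without 1 library and in 7 of 10 alternatives in all, beside the myeloid sums given above. Without the doublets marked by Scrublet it was -0.07 and was not called. The monocyte chemokine Ccl2 (difference -0.82, edgeR adjusted p = 0.0134) lost its call without control library 2, disease library 3 and disease library 5, and Dlk1 (-6.50, edgeR adjusted p = 0.00764), at 9.83 CPM or less throughout, without control library 1 and disease library 3.

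Against the triad-low fibroblasts, 5 of 10493 genes differed in their change by edgeR (0.0477%), and 515 had an unadjusted p under 0.05. DESeq2 called no gene in this comparison. Acta2 (difference 2.35) and Tagln (2.74) were at 344 and 406 CPM in the triad-low barcodes of control library 1 and at 8.85 to 67.4 CPM in the other libraries of that class. Without control library 1 the differences were 0.19 and -0.17. Mmp3, a matrix protease, had a difference of -1.39 (edgeR adjusted p = 0.00285). It was at 166 and 157 against 288, 79.1 and 193 CPM in Pi16-low and at 73.5 and 83.2 against 318, 172 and 200.5 CPM in triad-low fibroblasts. The monocyte chemokine Ccl7 (1.21, edgeR adjusted p = 0.00748) and the lipid carrier Apod (1.01, edgeR adjusted p = 0.0441) had a more positive change in Pi16-low fibroblasts. Acta2 lost its call without control library 1 and disease library 3, Tagln without control library 1, Mmp3 without control library 1 and control library 2, Ccl7 without control library 1, control library 2 and disease library 4 and Apod without control library 1, control library 2, disease library 3 and disease library 5.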

How the data were processed

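The authors deposited 5 count matrices, 1 per pooled-heart library, of raw UMI counts per gene and barcode; per the file headers they were written with software version 3.1.0, and the submitters' processing notes name Cell Ranger 3 and Seurat 3 and the builds mm10 and GRCh38 with no role. Libraries held 24991704 to 55053988 UMIs, and shares and levels carry counting error at that depth. Barcodes were selected by the rule given above; the members and the gene lists were chosen with earlier results of these data known. Counts were summed per library and class and compared by the quasi-likelihood test of edgeR 4.0.16 (R 4.3.3), after filterByExpr and TMM scaling, with Benjamini-Hochberg adjustment over all genes tested; differences of change between classes used an interaction with the library as a block. By the naming rule, named genes were members of the lists, the 12 largest rises and 12 largest falls among called genes with a mean log2 CPM of at least 5 and no overlap of the groups, the 4 of lowest p on each side of each class comparison, and the 12 highest and 8 lowest by ratio to each other class among genes with a mean of at least 50 CPM in either class. Shares were compared by exact permutation. DESeq2 1.42.0, other scalings, filters and limits, a GC correction and leaving out each library were the alternatives. Doublets were called with Scrublet in scanpy 1.11.5. Depth was equalised by thinning to 2000 UMIs. Promoter sequences are from RefSeq; the code was tested on simulated data. A class of fibroblasts above the Postn limit (48 barcodes) was too small to test.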

Additional observations from a re-analysis of the deposited data

Results flagged for a closer look

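These genes stand out because their change from control to disease differed between Pi16-low fibroblasts and another class of fibroblasts of the same libraries, by an interaction test in edgeR with Benjamini-Hochberg adjustment. Against Pi16-carrying fibroblasts the log2 difference was positive for Has1 (1.48), Mfap4 (0.52), Cd9 (0.47), Col14a1 (0.52) and Comp (3.49). Has1 synthesises hyaluronan, Mfap4, Col14a1 and Comp are matrix proteins, and Cd9 is a membrane protein. The difference was negative for the globin genes Hbb-bt (-6.01), Hbb-bs (-4.89), Hba-a2 (-5.29) and Hba-a1 (-4.31), for the smooth muscle gene Myh11 (-3.59), for Lyz2 (-1.16) of myeloid cells, and for Dlk1 (-6.50) and Ccl2 (-0.82). In each fit without 1 library, Has1 and Lyz2 were called, and each of the other 11 lost its call at least once. Without the doublets marked by Scrublet the difference of Lyz2 was -0.07, which was not called. Against triad-low fibroblasts the difference was 2.35 for Acta2, 2.74 for Tagln, 1.21 for Ccl7, 1.01 for Apod and -1.39 for Mmp3. Each of these 5 lost its call at least once. Without control library 1 the difference was 0.19 for Acta2 and -0.17 for Tagln. DESeq2 called Has1 alone against Pi16-carrying fibroblasts and no gene against triad-low fibroblasts.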

How the results depend on the processing

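At equal depth (2000 UMIs per barcode) the difference in share of fibroblast-gated barcodes was 0.582 instead of -4.18 percentage points. It ran from -4.54 to -3.75 without 1 library, and that of all barcodes from -2.89 to -0.550. In place of 1113 called genes (36 higher, 1077 lower), 1926 (214 and 1712) were called with no filter on low counts and 1673 (57 and 1616) with no limit on Pi16, Dpp4 and Sema3c, a setting chosen after the data were seen. Higher genes numbered 63 with the GC trend removed and 21 at a mitochondrial limit of 5%. Leaving out 1 library gave 473 to 1130 called genes, 2 to 60 higher and 471 to 1080 lower. Differences against Pi16-carrying fibroblasts, 13 by edgeR (5 higher, 8 lower), became 40 (23 and 17) with no filter, 1 (1 and 0) by DESeq2, and 5 to 14 (1 to 5 and 3 to 13) without 1 library. Against triad-low fibroblasts, 5 by edgeR (4 and 1) became 16 (10 and 6) with no filter, 0 by DESeq2 against 515 at an unadjusted p under 0.05 in edgeR, 12 (8 and 4) without doublets, and 1 to 25 (1 to 17 and 0 to 8) without 1 library. With equal numbers of Pi16-low fibroblasts per library, 2 were higher and 2 lower, and RLE scaling gave 3 lower. The log2 fold change of B2m was -0.0304 without disease library 4 (up to 1.26 without another library), and the difference of Tagln -0.17 without control library 1 (up to 3.56). The causes were not tested. No paired analysis was possible because the control and disease libraries share no replicate numbers. The 278 to 678 barcodes per library limit the precision for genes with few UMIs.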
